A study of Mus musculus with 4 samples.

Results

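The genes of the cytosolic ribosomal proteins were examined in Beko cells, a line of mouse leukemia pre-T cells in which Notch signaling is always on. They were taken by gene symbol alone, as all rows named Rpl or Rps with a number and at most a short ending (a, l, x or a further digit), together with Rplp0, Rplp1, Rplp2 and Rpsa. This gave 84 genes of the 24391 in the count table, 51 of the large and 33 of the small ribosomal subunit. In the GSI group (2 libraries), the cells were kept for 48 h with the γ-secretase inhibitor DAPT, which blocks the cleavage that releases the Notch intracellular domain. In the washout group (2 libraries), the same treatment of 48 h was followed by washing and a further 24 h in culture. The labels give the inhibitor at 10 mg/ml and the study's methods give the same figure in μg/ml. Both groups therefore saw the inhibitor, and cells washed and cultured alike without it were not analysed here, so that the return of Notch activity cannot be told apart from the wash and the longer culture. The cells are 1 line, and nothing in the labels says whether the 2 libraries of a group came from separate cultures, so the p-values measure only the spread between these libraries, which may be technical.

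Each ribosome is built from ribosomal RNA and one copy of most ribosomal proteins, so cells make these proteins in matched amounts. Their mRNAs are among the most abundant of a growing cell and share a 5′ terminal oligopyrimidine (TOP) tract, a run of C and T that begins at the first transcribed base and through which mTOR signaling controls their translation. In thymocytes and T-cell leukemia, Notch and its target Myc are known as drivers of cell growth and ribosome production, and RPL5, RPL10, RPL11 and RPL22 are known to be mutated in T-cell leukemia.

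The start regions of 63 of the 84 genes were found in the RefSeq promoter table (build GRCm38.p6, a later build than the mm9 genome of the counts). A run of at least 8 C or T within 30 bases on each side of a start was present in 35 of the 63 genes (55.6%), compared with 25.8% of all 27025 genes with such a window and 27.5% of the genes for mitochondrial ribosomal proteins. Stretches of 30 bases are shown for the 2 genes with the longest runs printed here, Rpl7a and Rpl27a, for Rpl14 and Rps25, which were among the larger rises described below, for Rps27 and its paralog Rps27l, which moved differently, and for Rpl3l, the only gene of the set that fell. Capitals mark the longest run of C and T near the start, and each is written 5′ to 3′ on the strand of the gene.
Rpl7a (chr2:26910788-26910817, plus strand): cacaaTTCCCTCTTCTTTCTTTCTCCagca
Rpl27a (chr7:109519186-109519215, plus strand): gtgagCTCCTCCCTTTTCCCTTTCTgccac
Rpl14 (chr9:120571501-120571530, plus strand): agggcgggCCCTCTCTCTTCTCgctgagcg
Rps25 (chr9:44407684-44407713, plus strand): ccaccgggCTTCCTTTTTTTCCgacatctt
Rps27 (chr3:90213632-90213661, minus strand): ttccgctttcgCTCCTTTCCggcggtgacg
Rps27l (chr9:66946053-66946082, plus strand): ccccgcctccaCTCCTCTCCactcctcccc
Rpl3l (chr17:24727822-24727851, plus strand): ctctgtcatttgaCCTCTggtgcctggtgg

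Other short motifs were searched on both strands of the whole window of 250 bases before to 50 after the start. TGGGAA, the core of the site of RBPJ (the DNA-binding partner of the Notch intracellular domain), was present in 16 of the 63 genes (25.4%), in 28.3% of all genes and in 26.2% of those tested for expression. CACGTG, the E-box bound by Myc, was present in 6 of the 63 (9.52%), in 8.09% of all genes and in 11.7% of the genes tested for expression. CCGGAA, a core bound by ETS factors, was present in 35 of the 63 (55.6%), in 16.7% of all genes, in 32.8% of those tested for expression and in 58.0% of the mitochondrial ribosomal protein genes. The TGGGAA match nearest the start is shown in capitals for Rpl22 and its paralog Rpl22l1, the gene of the set with the largest rise. In Rpl22l1 it overlaps the end of the run of C and T and is read on the opposite strand.
Rpl22 (chr4:152325706-152325735, plus strand): ccgacttcgcccTGGGAAaagcaatagctg
Rpl22l1 (chr3:28805502-28805531, plus strand): aagcccgttctcTTCCCAcggctgcagctc
These matches describe the letters of the windows and not binding.

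The libraries held 29671401 and 13716199 counts in GSI and 36364200 and 14451995 counts upon washout. Levels are given below as CPM (counts of a gene per 1000000 counts of the library), scaled between libraries with edgeR's TMM factors (0.930 to 1.08), and as RPKM, the same value per kb of transcript, where genes are compared with each other. Differences are log2 fold changes of washout against GSI from the quasi-likelihood test of edgeR, adjusted (Benjamini-Hochberg) over all 12266 genes that passed the filter on low counts. A gene rose or fell where its adjusted p was under 0.05, and it passed both thresholds where its log2 fold change was also above 1 or below -1. The pre-T markers Ptcra, Cd3d, Cd3e, Cd3g, Lck, Rag1, Rag2, Il2ra, Tcf7, Bcl11b and Thy1 were all expressed, with summed levels of 5609 and 6136 CPM under GSI against 6003 and 5858 CPM after washout. Of these, 4 rose and Tcf7, Bcl11b and Thy1 fell. Markers of other cell types were lower, and Cpa3, Itgam, Gata1, Klf1 and Col1a1 fell. The 4 mast cell or basophil markers summed to 175.7 and 77.4 CPM under GSI against 9.34 and 2.23 CPM after washout, almost all of it Cpa3, whereas Ms4a2, Fcer1a and Mcpt8 had at most 3 counts. The 5 myeloid markers summed to 49.1 and 38.2 CPM under GSI against 5.49 and 4.91 CPM after washout, with Lyz2 and Elane at most at 3 counts. The 4 erythroid markers summed to 12.03 and 10.4 CPM under GSI against 4.99 and 4.39 CPM after washout, with Hba-a1 and Hbb-b1 at most at 3 counts, and the B cell and fibroblast lists stayed under 4 CPM in every library. The part of these markers in the results below was not tested.

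Of the 84 genes, 81 could be tested. Rpl10l and Rpl39l, paralogs known from the testis, had no count in any library, and Rps4l had 1 count in washout replicate 1 and none elsewhere. A library without a count allows levels of up to 0.0881 to 0.223 CPM (3 counts, counting error only). The 1 count of Rps4l allows somewhat more in washout replicate 1. The 77 genes that are not paralog copies were all abundant, with mean levels from 55.4 to 1994 CPM in GSI. Per transcript length (75 genes with a coding transcript in the mm9 annotation), the levels ran from 61.6 to 2313 RPKM in GSI with a median of 396, and from 70.3 to 3551 RPKM upon washout with a median of 517. Rpl8, a protein of the large subunit near the peptidyl transferase center (mm9 chr15:76734501-76736748), had the highest level per length. It was measured at 2022 and 1965 CPM under GSI against at 2903 and 3218 CPM after washout, without overlap between the groups, and its log2 fold change was 0.62 ± 0.14 (SE; adjusted p = 0.0126, edgeR). Without GSI replicate 1 or GSI replicate 2 this p was 0.0847 and 0.0898. Rpl24 had the lowest level per length, but the annotation holds only 1 long coding transcript for it, so its level per length rests on that transcript. Rpl24 had 319 and 297 CPM under GSI against 333 and 369 CPM after washout.

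Most of the ribosomal protein genes had a modestly higher level upon washout. Of the 81 tested genes, 50 rose and 1 fell at an adjusted p under 0.05 in edgeR's quasi-likelihood test, whereas 27% of all tested genes rose and 25.4% fell. Their median log2 fold change was 0.40, a 1.32-fold higher level, with the middle 50% of the genes between 0.27 and 0.50, compared with a median of -0.01 and a range of -0.55 to 0.47 for all tested genes. The log2 fold change was above 0 in 77 of the 81 genes and in 49.5% of all tested genes. Both washout libraries lay above both GSI libraries in 75 of the 81 genes (38.2% of all tested genes), below them in 2 (39.1%), and the groups overlapped for the other 4. Few changes were large: 2 genes rose past both thresholds (7.74% of all tested genes did) and 1 fell past them (11.7%).

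**Figure D1:**
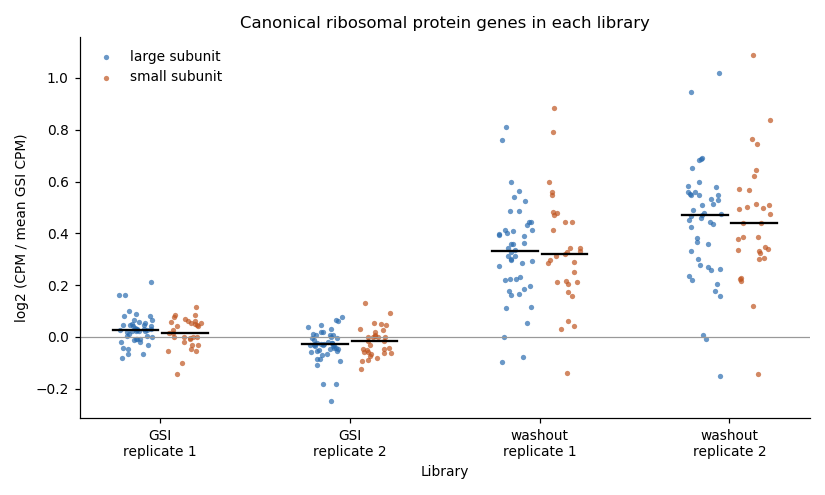
Level of the 77 ribosomal protein genes without the paralog copies in each library, as log2 of the CPM over the gene's mean CPM in GSI; points are genes (large subunit blue, small subunit orange) and black lines are medians. The points of both GSI libraries lie around 0 and nearly all points of both washout libraries lie above it.

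This result depended on how the libraries were scaled. With the total count alone in place of the TMM factors, the median of all tested genes moved by -0.20, to -0.21, that of the 81 ribosomal protein genes was 0.20, and 17 of them rose and 2 fell (18.9% and 34.6% of all tested genes). Relative to the median of all genes, the ribosomal protein genes were higher by 0.41 under both scalings. A change of scaling factors moves all genes by nearly the same amount, so this difference could hardly change and is no separate support. The count of 50 was also lower when a GSI library was left out, and so was the number of all tested genes that rose. Such a fit has only 1 library in that group, so its calls cannot show whether the excess over all genes held. With GSI replicate 1 left out, the ribosomal protein genes had a median of 0.39 and all tested genes one of 0.0024. With GSI replicate 2 left out, these medians were 0.40 and -0.0078. No spike-in was used, so the RNA content per cell was not measured, and in these bulk samples fewer cells of a type and less RNA per cell cannot be told apart.

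The share of all counts on the 84 genes was 3.66% and 3.48% in GSI and 3.93% and 4.27% upon washout. Such a share amounts to scaling by the total count, so it is not separate from the result with the total count alone. The groups did not overlap, and the means were 3.57% ± 0.127 in GSI and 4.10% ± 0.236 upon washout (SD, n = 2 each), a 1.15-fold difference with p = 0.33 in the two-sided exact permutation test, the smallest p that 2 against 2 libraries can give. The share of the large subunit genes was 2.26% and 2.14% in GSI and 2.43% and 2.65% upon washout, and that of the small subunit genes was 1.40% and 1.34% in GSI and 1.498% and 1.62% upon washout. Rn45s, the ribosomal RNA precursor that remained after the removal of ribosomal RNA, held 1.84% and 2.69% of the counts in GSI and 1.44% and 1.66% upon washout. Without Rn45s in the total, the share of the 84 genes was 3.73% and 3.58% in GSI and 3.99% and 4.34% upon washout.

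The changes lay in a narrow range. Leaving out the paralog copies, 47 of 77 genes rose and 30 were not past the test, the median log2 fold change was 0.39, the SD between genes was 0.20, and 54 of the 77 lay between 0.25 and 0.6. The large subunit genes had a median of 0.41, with 29 of 46 higher, and the small subunit genes a median of 0.36, with 18 of 31 higher. Of all tested genes, 27% rose. Across the 75 genes with both values, the change had little relation to GC content (Pearson's r = 0.07, Spearman's rho = 0.14), coding transcript length (r = -0.04, rho = 0.07) or level per length in GSI (r = -0.06, rho = -0.20). Genes are not independent replicates and all points share the same 4 libraries. A snoRNA gene lay inside 29 of the 79 genes with a position, and the median was 0.34 in these and 0.43 in the other genes. The 34 tested genes with a C and T run at the start had a median of 0.40 and the 27 without one 0.41, the 16 genes with TGGGAA had 0.33 and the 45 without it 0.45, the 34 genes with CCGGAA had 0.46 and the 27 without it 0.35, and the 6 genes with CACGTG had 0.39 and the 55 without it 0.40.

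**Figure D2:**
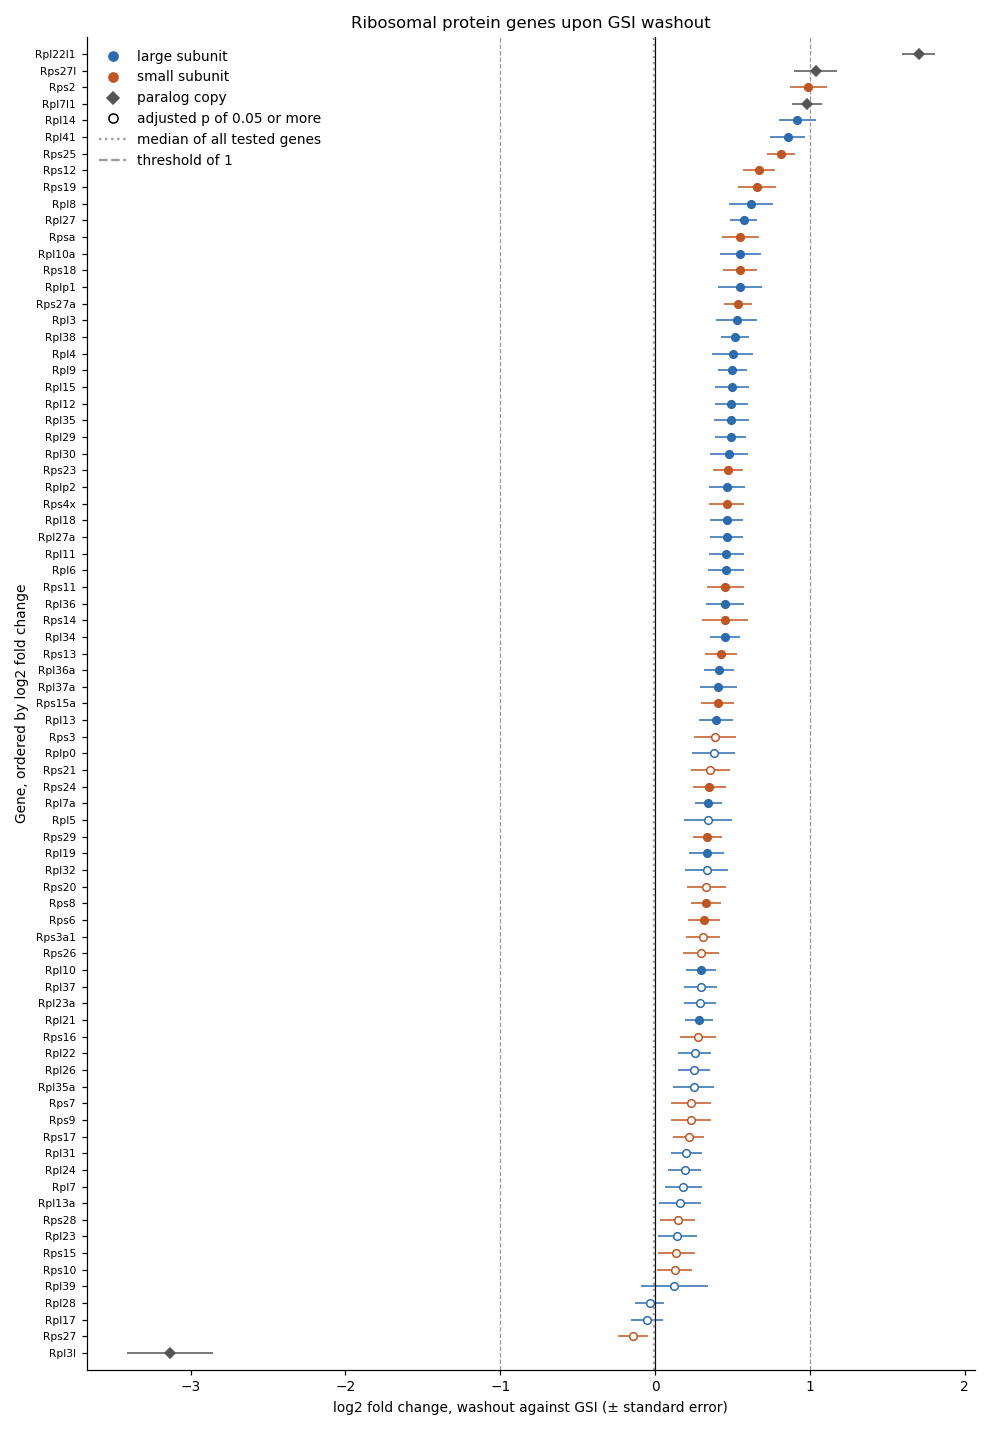
Log2 fold change of 79 of the tested genes, washout against GSI, with the standard error as bar; filled symbols are genes with an adjusted p under 0.05, diamonds are paralog copies, the dotted line is the median of all tested genes and dashed lines mark 1 and -1. Nearly all genes form a narrow ladder between 0 and 1, with Rpl22l1 (1.70) and Rpl3l (-3.13) at the ends.

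Among the genes of the standard ribosome, the largest rises were those of Rps2, Rpl14 and Rpl41. Rps2, a small subunit protein at the entry of the mRNA channel (mm9 chr17:24855061-24858874), had 248 and 265 CPM under GSI against 473 and 546 CPM after washout. Its libraries did not overlap, and the log2 fold change was 0.99 ± 0.12 (1.99-fold; adjusted p = 0.00114, edgeR). Rpl14, a large subunit protein (mm9 chr9:120480632-120483770), had 369 and 373 CPM under GSI against 650 and 751 CPM after washout, a change on the log2 scale of 0.92 ± 0.12 (adjusted p = 0.00154, edgeR). Rpl41, known as one of the shortest proteins of the cell, had 281 and 279 CPM under GSI against 474 and 539 CPM after washout, a change on the log2 scale of 0.86 ± 0.11 (adjusted p = 0.00155, edgeR). Rps25, Rps12, Rps19 and Rpl8 followed, with log2 fold changes of 0.81, 0.67, 0.66 and 0.62 (0.50, 0.59, 0.88 and 0.77 with the GC content and length offset). Rps19, the gene most often mutated in Diamond-Blackfan anemia, had 133 and 151 CPM under GSI against 207 and 241 CPM after washout.

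Of the lowest genes of the standard ribosome, 5 are described here, which had adjusted p-values from 0.251 to 0.775 in edgeR. Rps27, a zinc finger protein of the small subunit, had 119 and 108 CPM under GSI against 103 and 103 CPM after washout, so that both washout libraries were the lower ones (log2 fold change -0.14 ± 0.09, adjusted p = 0.251, edgeR). With the total count alone, Rps27 fell (-0.34, adjusted p = 0.0259, edgeR), as it did with an offset for GC content and length (-0.35). Rpl17, which lines the exit of the peptide tunnel, had 157 and 138 CPM under GSI against 138 and 147 CPM after washout, and Rpl28 had 209 and 198 CPM under GSI against 193 and 204 CPM after washout. For both, the groups overlapped and the log2 fold changes were -0.05 and -0.04 (-0.31 and 0.15 with the GC content and length offset, where Rpl17 fell). Rpl39, a very short protein of the tunnel wall, was the gene with the widest spread between replicates, with 334 and 243 CPM under GSI against 370 and 260 CPM after washout. In both groups replicate 1 was the higher library, the groups overlapped, and the log2 fold change was 0.13 ± 0.21 (-0.07 with the total count alone). Rps10 had 439 and 440 CPM under GSI against 449 and 511 CPM after washout, without overlap and with a log2 fold change of 0.13 (-0.07 with the total count alone, and 0.37 with the GC content and length offset, where it rose).

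The P-stalk, which recruits the translation factors with GTPase activity to the ribosome, is formed by Rplp0, Rplp1 and Rplp2. Rplp1 had 758 and 777 CPM under GSI against 1007 and 1235 CPM after washout (log2 fold change 0.55), and Rplp2 had 558 and 534 CPM under GSI against 718 and 787 CPM after washout (0.46). Both rose, whereas Rplp0, with 1698 and 1590 CPM under GSI against 2025 and 2250 CPM after washout, had a log2 fold change of 0.38 with an adjusted p of 0.0586 (edgeR; 0.00654 with DESeq2). In edgeR this p was 0.00887 with no filter beyond 1 count, 0.00604 with the replicate number as a block and 0.00465 with the GC content and length offset. It was 0.302 with the total count alone and 0.0774 with at least 10 counts in every library. In all 3 genes both washout libraries lay above both GSI libraries. The calls of Rplp1 and Rplp2 were lost with the total count alone and without either GSI library, with adjusted p-values of 0.0749 and 0.0924 for the former, 0.111 and 0.0889 without GSI replicate 1, and 0.0796 and 0.111 without GSI replicate 2 (edgeR).

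Rpl5 and Rpl11 join the 5S ribosomal RNA in a particle that enters the large subunit and, when free, binds the p53 ligase Mdm2. Rpl11 had 136 and 149 CPM under GSI against 183 and 210 CPM after washout and rose by a log2 fold change of 0.46 ± 0.11 (adjusted p = 0.0149, edgeR). Rpl5 had 545 and 430 CPM under GSI against 573 and 664 CPM after washout, without overlap, and its log2 fold change was 0.34 ± 0.15 (adjusted p = 0.108, edgeR). In edgeR this p was 0.0123 with no filter beyond 1 count and 0.00760 with the replicate number as a block. It was 0.474 in edgeR with the total count alone, and 0.0524 with DESeq2. Together with Rpl10 and Rpl22, these are the genes known from T-cell leukemia, of which 2 of 4 rose, with a median of 0.32. Of all tested genes, 27% rose. Rpl10, which joins the large subunit last, had 178 and 162 CPM under GSI against 208 and 209 CPM after washout (0.30, adjusted p = 0.0429, edgeR). That call was lost without any one of the 4 libraries, with adjusted p-values from 0.0717 to 0.255, with the total count alone (0.443), with the GC content and length offset (0.198) and with at least 10 counts in every library (0.0650). The call of Rpl11 was lost without GSI replicate 1 (adjusted p = 0.107) and with the total count alone (0.0827).

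The mRNA channel and decoding site list (8 genes) had a median of 0.42 on the log2 scale, and 4 of them rose, among them Rps2, Rps14 and Rps23. The genes of the peptide exit tunnel and its rim (8 genes) had a median of 0.27, and 3 of them rose, namely Rpl4 (1949 and 1889 CPM under GSI, 2691 and 2743 CPM after washout), Rpl19 and Rpl35. Of the 16 genes known from Diamond-Blackfan anemia, 6 rose and the median was 0.27. The lists overlap in part, and 27% of all tested genes rose. With the total count alone, 1 gene of the mRNA channel list rose (median 0.22), the 3 calls of the exit tunnel list were lost (median 0.07), and 2 genes of the Diamond-Blackfan list rose and 1 fell (median 0.08), compared with 18.9% and 34.6% of all tested genes that rose and fell. With the GC content and length offset, the median of the exit tunnel list was 0.16.

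Genes with a second role were examined by name. Rps6, the classical substrate of the S6 kinases, had 419 and 393 CPM under GSI against 499 and 513 CPM after washout, a change on the log2 scale of 0.32 (adjusted p = 0.0429, edgeR). Leaving out any one library raised this p above 0.05, to 0.151 without GSI replicate 1, 0.247 without GSI replicate 2, 0.0653 without the first and 0.0811 without the second washout library, and so did the total count alone (0.373) and a minimum of 10 counts in every library (0.0621). Rpsa, also known as a laminin receptor, had 668 and 628 CPM under GSI against 903 and 997 CPM after washout (0.55, adjusted p = 0.0103, edgeR; 0.0595 without GSI replicate 1 and 0.0805 without GSI replicate 2). Rps27a, whose protein is made as a fusion with ubiquitin, had 141 and 139 CPM under GSI against 206 and 200 CPM after washout (0.54, adjusted p = 0.00379, edgeR).

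The 4 detected paralog copies had changes of larger size than their partners, in both directions. Rpl22l1, the paralog of Rpl22 (mm9 chr3:28704358-28706274, plus strand), had 24.5 and 27.0 CPM under GSI against 81.03 and 86.1 CPM after washout. It had the largest rise of the set, with a log2 fold change of 1.70 ± 0.10 (3.25-fold; adjusted p = 0.000305, edgeR), which lay between 1.31 and 1.78 under the 15 alternatives. Rpl22 itself, a protein needed for the development of αβ T cells and known to restrain Rpl22l1, had 349 and 336 CPM under GSI against 387 and 431 CPM after washout (0.26 ± 0.11, adjusted p = 0.0895, edgeR). In edgeR this p was 0.0315 with the GC content and length offset, 0.0184 with the replicate number as a block and 0.676 with the total count alone. Rpl22l1 thus had 7.01% and 8.04% of the counts of Rpl22 in GSI and 20.9% and 19.96% upon washout, a 2.72-fold higher ratio.

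Rps27l, the paralog of Rps27 known as a target of p53 (mm9 chr9:66793893-66797323, plus strand), had 59.5 and 55.0 CPM under GSI against 132 and 103 CPM after washout, a change on the log2 scale of 1.04 ± 0.14 (adjusted p = 0.00171, edgeR). The size lay close to the threshold of 1. It fell under 1, among others, with the GC content and length offset (0.76), with the total count alone (0.84), without washout replicate 1 (0.84) and without GSI replicate 2 (0.99). Rps27l had 50.01% and 50.9% of the counts of Rps27 in GSI and 128% and 99.9% upon washout. Rpl7l1, the paralog of Rpl7 (mm9 chr17:46910856-46919605, minus strand), had 87.8 and 96.4 CPM under GSI against 179 and 185 CPM after washout (0.98 ± 0.10, adjusted p = 0.000649, edgeR). Rpl7, one of the most abundant genes of the set, had 1074 and 1035 CPM under GSI against 1179 and 1214 CPM after washout (0.18, adjusted p = 0.240, edgeR; -0.02 with the total count alone), so that the ratio of Rpl7l1 to Rpl7 went from 8.18% and 9.31% to 15.2% in both washout libraries.

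Rpl3l, known as the paralog of Rpl3 in striated muscle (mm9 chr17:24864774-24873094, plus strand), was the only gene of the set that fell. It had 8.94 and 7.06 CPM in GSI (286 and 103 counts) and 0.970 and 0.818 CPM after washout (33 and 11 counts), a log2 fold change of -3.13 ± 0.28 (adjusted p = 0.000525, edgeR). Rpl3, at the heart of the large subunit, had 548 and 562 CPM under GSI against 728 and 871 CPM after washout and rose by 0.53 ± 0.13 (adjusted p = 0.0165, edgeR; 0.0714 with the total count alone, 0.103 without GSI replicate 1 and 0.0719 without GSI replicate 2). Rpl3l had 1.63% and 1.26% of the counts of Rpl3 in GSI and 0.133% and 0.0939% upon washout. Rps4x, the partner of Rps4l, had 653 and 599 CPM under GSI against 874 and 850 CPM after washout (0.46, adjusted p = 0.0167, edgeR; 0.0991 with the total count alone, 0.0759 without GSI replicate 1 and 0.133 without GSI replicate 2). The ratios of the 4 copies to their partners did not overlap between the groups, and the two-sided exact permutation test gave p = 0.33 for each, the smallest possible with 2 against 2 libraries.

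**Figure D3:**
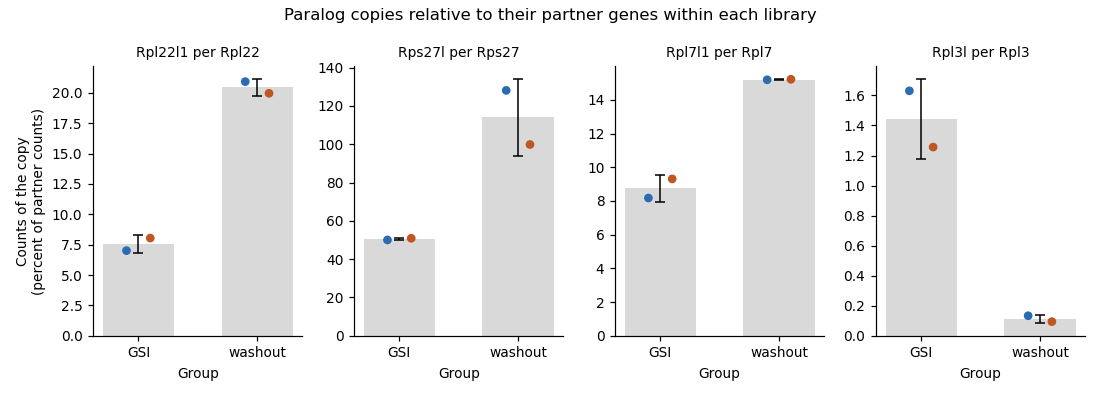
Counts of 4 paralog copies as a percentage of the counts of their partner gene in the same library; bars are means of 2 libraries, error bars the SD, blue points replicate 1 and orange points replicate 2. The ratio is higher upon washout for Rpl22l1, Rps27l and Rpl7l1 and lower for Rpl3l, without overlap.

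Several of the genes have near-identical rows in the table, which limits single values. Rpl34-ps1 held 99.1% to 99.7% of the counts of Rpl34, Rps27rt 97.1% to 97.8% of those of Rps27 and Rpl14-ps1 112% to 125% of those of Rpl14, and their log2 fold changes were 0.44, -0.13 and 0.92 beside 0.45, -0.14 and 0.92 for the genes themselves. Rpl37rt and Rplp2-ps1 held 64.1% to 65.7% and 40.3% to 43.2% of the counts of Rpl37 and Rplp2. Rps19-ps3 held 17.6% to 22.9% of the counts of Rps19, and further genes of the set have such rows. The values of these members, and the ratio of Rps27l to Rps27, are therefore uncertain. Rps25, Rps27a, Rpl24, Rpl5 and Rpl35, among others, overlap a gene on the opposite strand, and whether the counting used the strand was not stated.

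Ribosomal proteins whose names fall outside the pattern gave values on both sides of the median of the 81 genes (0.40). Fau, a fusion of a ubiquitin-like protein with a small subunit protein, had a log2 fold change of 0.03, and Gnb2l1 (Rack1), a scaffold on the small subunit, 0.35. Their adjusted p-values were 0.829 and 0.0768 (edgeR). Rpl36al, a near copy of Rpl36a, had 99.5 and 99.5 CPM under GSI against 143 and 154 CPM after washout and rose by 0.58 (adjusted p = 0.00304, edgeR).

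Other lists of the pathway were set beside the ribosomal proteins. Of all tested genes, 27% rose, 7.74% rose past both thresholds and 25.4% fell (18.9% rose and 34.6% fell with the total count alone). All 10 tested chaperones and importers of ribosomal proteins rose, 6 of them past both thresholds, with a median log2 fold change of 1.10 and values from 0.39 (Aamp) to 1.86 (Grwd1, the chaperone of Rpl3, at 27.5 and 30.4 CPM under GSI against 107 and 102 CPM after washout). Of 12 genes of late subunit assembly and export, 9 rose, with a median of 0.92 and values from -0.23 (Bysl, adjusted p = 0.0903, edgeR) to 1.96 (Pno1, an assembly factor of the small subunit, at 22.5 and 19.7 CPM under GSI against 92.5 and 71.8 CPM after washout). Of 15 translation factors and other genes with TOP mRNAs, 10 rose, with a median of 0.62 and values from -0.30 (Tpt1, adjusted p = 0.0989, edgeR) to 1.83 (Npm1, a nucleolar chaperone, at 356 and 336 CPM under GSI against 1373 and 1087 CPM after washout). The regulators of mTOR and of TOP mRNAs did not move one way. Of 14 genes, 6 rose and 2 fell, the median was 0.08 (-0.11 with the total count alone, where 4 rose and 4 fell, 0.48 with the GC content and length offset, 0.16 without GSI replicate 2 and 0.14 without washout replicate 1), and the ends were Eif4ebp1 (2.33), an inhibitor of cap-dependent initiation under mTOR control, and Pdcd4 (-1.34), an inhibitor of the helicase eIF4A. Eif4ebp1 had 12.9 and 14.2 CPM under GSI against 55.9 and 80.6 CPM after washout.

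The genes for the proteins of the mitochondrial ribosome, which translates the mitochondrial genome, had a larger median change than those of the cytosolic one. Of 77 tested genes, 65 rose, 13 past both thresholds (27% and 7.74% of all tested genes). Their median log2 fold change was 0.70, with values from -0.05 (Mrpl52) to 1.76 (Mrps18b). Their share of all counts was 0.295% and 0.287% in GSI and 0.405% and 0.403% upon washout, a 1.39-fold difference (p = 0.33, two-sided exact permutation test). The difference between the mitochondrial and cytosolic medians is a description and was not tested.

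**Figure D4:**
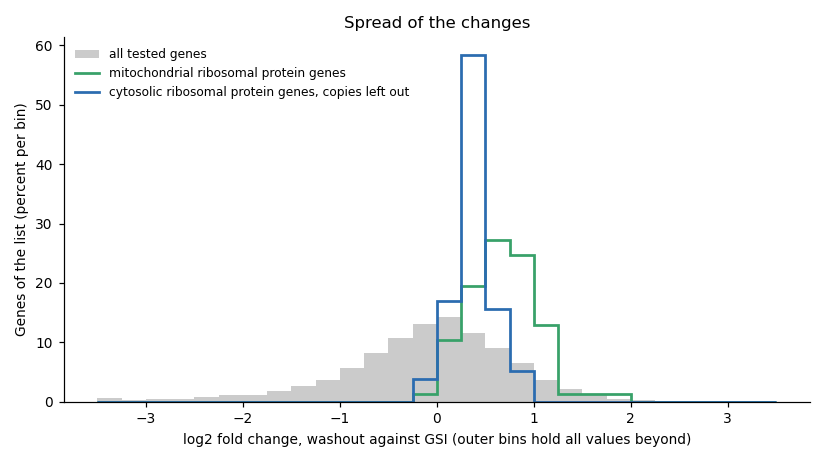
Share of the genes of each list per bin of log2 fold change, washout against GSI; grey is all 12266 tested genes, green the 77 mitochondrial and blue the 77 cytosolic ribosomal protein genes without the paralog copies. The blue curve is narrow, with 58.4% of the genes between 0.25 and 0.5, and the green curve lies to its right.

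**Figure D5:**
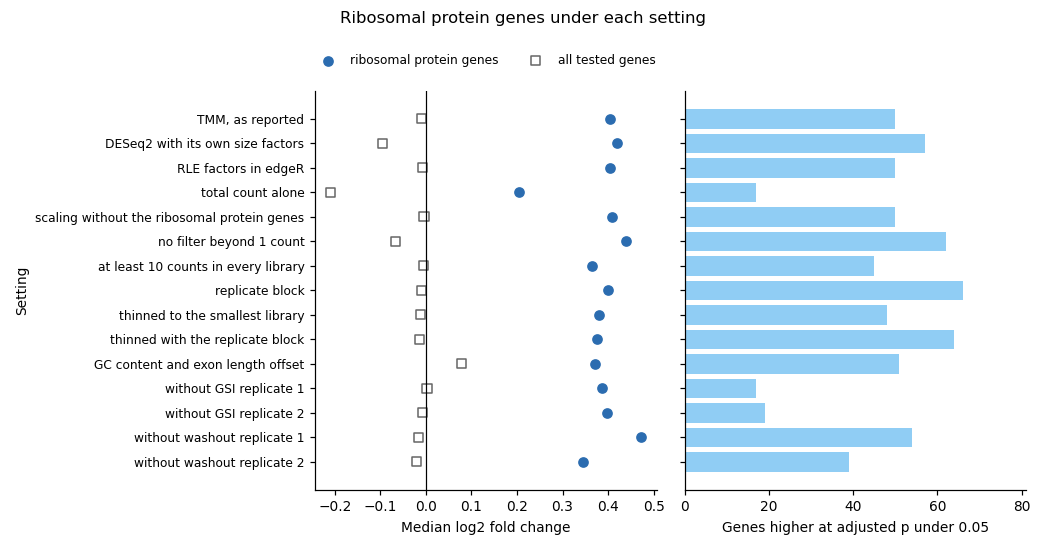
Median log2 fold change of the tested ribosomal protein genes (filled) and of all tested genes (open squares) under each setting (left), and the number of ribosomal protein genes that rose (right). The median of the ribosomal protein genes lies above that of all genes under every setting shown, and the number that rose ranges from 17 to 66.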

How the data were processed

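RNA-seq libraries (stranded total RNA, ribosomal RNA removed) of 2 GSI and 2 washout samples were analysed. Per the labels and the study's methods, reads were adapter-trimmed by the authors (trimGalore), mapped to the mm9 genome by HISAT2 2.2.1 with 1 alignment kept per read, and summed over genes by summarizeOverlaps. Deposited were the resulting counts, without normalization. The strand setting and the treatment of overlapping genes were not given in the sources used here. Every column of the count table was used.

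Counts were filtered with filterByExpr, scaled by TMM and tested with edgeR 4.0.16 (R 4.3.3) as washout minus GSI, without covariates. Thresholds were an adjusted p under 0.05 and a log2 fold change of 1. RPKM used the coding transcripts of GENCODE vM1 on mm9. In simulated counts for washout against GSI (12126 genes), 178 of 198 genes changed by 1.5 (log2) were recovered with 10 false calls. In a second simulation (12117 genes) only the 81 ribosomal protein genes were changed, by 0.3. Here edgeR recovered 0 with 2 false calls, and DESeq2 recovered 6 with 8 false calls. With no other gene changed, the adjustment over all genes was stricter there than in the data. That simulation therefore sets no limit of detection for the data, where Rpl10 (0.30) and Rps6 (0.32) rose. Counting precision at 3 counts is 0.0881 to 0.223 CPM, and replicates differed beyond counting noise (chi-square per degree of freedom 17.4 and 27.9). Alternatives were DESeq2 1.42.0, other scalings and filters, thinned counts, a GC and length offset, a replicate block, other prior counts, glmTreat and leaving out each library.

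Named genes were those past both thresholds, the 6 highest and 6 lowest by log2 fold change at an average log2 CPM of at least 3, the P-stalk, 5S particle, T-cell leukemia and paralog lists with the partners of the copies, untested members, Rps6, Rpsa, Rps19 and Rps27a, the highest and lowest level per length, the proteins outside the naming pattern and the ends of each other list. A few genes that this rule or a list takes in are not reported here by name, but count in the totals of the lists. Other genes named were chosen after their values were seen. The members and lists were chosen with earlier results of these data known.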

Additional observations from a re-analysis of the deposited data

How the results depend on the processing

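The median log2 fold change of the ribosomal protein genes kept its sign under every setting tried. Past both thresholds, 4 ribosomal protein genes rose with DESeq2 and with no filter beyond 1 count, beside 953 and 1077 genes of the whole table. With the total count alone, with at least 10 counts in every library and with glmTreat, 1 rose, beside 586, 807 and 308. At an adjusted p under 0.05, 17 rose with the total count alone (17 to 54 when a library was left out), and 2 fell with the total count alone and 3 with the GC content and length offset. With the total count alone the medians were 0.20 for all tested ribosomal protein genes, 0.21 for the large and 0.16 for the small subunit (0.34 to 0.45 for the small subunit when a library was left out) and -0.11 for the mTOR list, and 586 genes of the whole table rose past both thresholds. With glmTreat 308 genes of the whole table rose and 501 fell. When a library was left out, 2202 to 3334 genes of the whole table rose and 2028 to 2815 fell. Signs turned with the total count alone for Rpl24 (-0.0097), Rpl39 (-0.075), Rpl7 (-0.018) and Rps10 (-0.073), with no filter for Rpl28 (0.00029), with the GC content and length offset for Rpl28 (0.15) and Rpl39 (-0.016), and when a library was left out for Rpl17 (-0.13 to 0.037), Rpl28 (-0.065 to 0.012) and Rpl39 (-0.15 to 0.37), namely without GSI replicate 1 for Rpl17 (0.037) and Rpl28 (0.0022), without GSI replicate 2 for Rpl39 (-0.072), and without washout replicate 1 for Rpl28 (0.012) and Rpl39 (-0.15). Leaving out a library leaves 1 in its group, which is assumed to vary like the other group, and fewer samples to test. The cause of the other shifts was not tested. Of 419 comparisons of a named gene with an alternative, 359 kept direction and call, 31 lost the call, 17 gained one and 12 turned sign.

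The same-numbered libraries deviated together (r = 0.548 over all tested genes), but there are only 2 pairs and no label of a shared batch. They also shared depth, with 29671401 and 36364200 counts in replicate 1 and 13716199 and 14451995 in replicate 2. What they share beyond number and depth is not known. With the replicate number as a block, 66 ribosomal protein genes rose, the 50 reported among them, and 4243 genes of the whole table rose and 4216 fell. With thinned counts and the block, 64 ribosomal protein genes and 4041 genes of the whole table rose. GC content and length were known for 89.5% of the tested genes. With their offset 51 ribosomal protein genes rose, 42 of them among the 50, and Rpl17 (-0.31) and Rps27 (-0.35) fell. The median was then 0.37 for the ribosomal protein genes and 0.08 for all tested genes, against 0.40 and -0.01 without the offset. Depth limits the untested copies and Rpl3l upon washout.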
